A study of Mus musculus with 15 samples.

Results

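The 8 genes described here are Fn3k, Ypel4, Tns1, Gjb2, Fbxo10, Josd2, Dnah8 and Hemgn, taken by gene name from the 55487 mouse genes of the deposited tables. They were selected on the measured values themselves, for a large or very uniform fall of the read counts in Rpl5 mutant cells, so their differences from wildtype are given as a description, with standard errors and without p-values, and counts of calls among them are read as nothing more. All 8 passed the low-count filter in both groups of mice. RNA had been sequenced from erythroid progenitors of fetal livers of strain 129S6/SvEvTac at stage E12.5, in 15 libraries. Group 1 of mice (polyA RNA) held 3 wildtype and 3 mutant libraries. Group 2 (total RNA) held 3 wildtype, 3 mutant and 3 low-yield mutant libraries. The sample sheet of group 2 names the genotype of both kinds of mutant Rpl5plusSkax23Jus, that of group 1 gives only a code for mutant, and no source used here defines "low-yield". Nothing in the labels says whether the libraries of a group came from separate embryos, so the errors and p-values measure the spread between these libraries, which may be technical.

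Rpl5 is a protein of the large ribosomal subunit, and loss of 1 copy of its gene is a known cause of Diamond Blackfan anemia, a failure of red cell production. Erythroid progenitors of the fetal liver mature through stages in which they stop dividing, fill with haemoglobin, build a spectrin skeleton under the membrane and lose their nucleus, and the genes of those late steps are switched on largely by GATA1, TAL1 and KLF1. The 8 genes have different products: an enzyme that removes sugars from proteins (Fn3k), a zinc-binding protein needed for a normal red cell membrane (Ypel4), a link between integrins and actin (Tns1), a gap junction channel protein (Gjb2), parts of the ubiquitin system (Fbxo10, Josd2), a dynein motor (Dnah8) and a nuclear protein of blood cells (Hemgn).

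RefSeq promoters (250 bases before to 50 after the annotated start, GRCm38.p6) were found for 7 of the 8 genes, all but Fn3k. Because the genes fell together, those windows were searched on both strands for motifs of the erythroid factors. AGATAA is a GATA factor motif. A CACC box of the kind that KLF1 reads was written as CCNCNCCC. For the E-boxes that TAL1 reads with its partners the letters were CAGNTG. Another GATA form, TGATAA, was added after the windows had been seen. The promoters below are those of Hemgn, which alone held the GATA forms, and of the 3 genes with the largest falls among those with a window. Capitals mark every match to any of the 4 motifs on either strand, and neighbouring matches can overlap.
Hemgn (chr4:46404134-46404433, reverse strand): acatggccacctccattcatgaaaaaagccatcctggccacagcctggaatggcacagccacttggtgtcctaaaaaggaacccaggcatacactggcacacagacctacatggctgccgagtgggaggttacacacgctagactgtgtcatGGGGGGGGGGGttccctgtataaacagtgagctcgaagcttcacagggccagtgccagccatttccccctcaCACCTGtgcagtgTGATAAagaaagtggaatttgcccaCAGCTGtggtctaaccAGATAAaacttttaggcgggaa
Ypel4 (chr2:84733954-84734253, forward strand): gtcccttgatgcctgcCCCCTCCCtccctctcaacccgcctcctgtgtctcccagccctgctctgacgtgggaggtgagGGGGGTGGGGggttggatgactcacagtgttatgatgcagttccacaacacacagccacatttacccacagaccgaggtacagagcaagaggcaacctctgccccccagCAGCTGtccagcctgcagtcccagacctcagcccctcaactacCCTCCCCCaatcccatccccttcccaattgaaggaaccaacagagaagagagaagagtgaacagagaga
Tns1 (chr1:74124499-74124798, reverse strand): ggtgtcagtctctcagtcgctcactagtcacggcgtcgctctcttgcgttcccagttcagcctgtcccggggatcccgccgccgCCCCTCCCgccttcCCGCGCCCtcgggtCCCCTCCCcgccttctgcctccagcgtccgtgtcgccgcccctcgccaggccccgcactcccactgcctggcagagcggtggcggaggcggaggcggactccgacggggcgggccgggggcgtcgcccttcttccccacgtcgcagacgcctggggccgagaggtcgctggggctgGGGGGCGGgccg
Gjb2 (chr14:57104653-57104952, reverse strand): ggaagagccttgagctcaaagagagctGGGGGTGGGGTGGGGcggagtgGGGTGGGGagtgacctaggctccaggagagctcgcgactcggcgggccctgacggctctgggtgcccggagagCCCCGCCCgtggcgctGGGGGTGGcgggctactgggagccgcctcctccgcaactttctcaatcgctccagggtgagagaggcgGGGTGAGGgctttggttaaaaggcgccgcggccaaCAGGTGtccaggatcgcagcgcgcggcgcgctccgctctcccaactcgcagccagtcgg
AGATAA and TGATAA each occurred in 1 of the 7 promoters, that of Hemgn, against 11.2% and 9.05% of all 32851 promoters of the table. In Hemgn the TGATAA begins at -13 and the AGATAA at 28, counted from the start site at 0, and E-box matches begin at -26 and 12. CCNCNCCC was found in 6 of 7 (all but Josd2), against 49.5% of all promoters. These letters are looser than a CACC box. The matches of Hemgn overlap within a single run of G, and those of Tns1 and Fbxo10 hold no CACC on either strand. CAGNTG was found in 4 of 7 (Ypel4, Gjb2, Dnah8 and Hemgn), against 51.4%. These counts describe letters in short windows, not binding. The RefSeq windows of Hemgn and Dnah8 lie inside the genes as GENCODE draws them, at later starts.

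Read per length of transcript (RPKM, the normalised level divided by the kilobases of exon), the 8 genes ranged from abundant to barely expressed transcripts. In the wildtype of group 1 the order was Hemgn (96.7 ± 7.004 RPKM, SD, n = 3), Josd2 (58.1 ± 3.48), Fbxo10 (12.1 ± 0.458), Gjb2 (4.05 ± 0.303), Ypel4 (3.43 ± 1.03), Tns1 (2.63 ± 0.394), Dnah8 (1.93 ± 0.171) and Fn3k (1.06 ± 0.220). Ypel4 overlapped both of its neighbours in that order within 1 SD. In the wildtype of group 2 Josd2 (109 ± 3.75 RPKM) and Hemgn (97.3 ± 19.7) overlapped at the top, Fbxo10 followed at 16.7 ± 0.524, Tns1 (6.04 ± 0.629), Gjb2 (5.02 ± 0.646) and Dnah8 (4.68 ± 0.305) overlapped from one to the next, and Ypel4 (2.72 ± 1.45) overlapped Fn3k (0.981 ± 0.361) at the bottom. Levels were not compared between the groups of mice, whose kind of RNA differs.

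The order changed in the mutants because the genes fell by different amounts. Dnah8 moved from 7th to 4th place in group 1 and from 6th to 4th in both kinds of mutant of group 2. Among all tested genes of group 1, Fn3k went from percentile 30.2 of the level per length in wildtype to 4.5 in the mutant. In group 2 it went from 32.1 to 2.0 in mutant and 1.6 in low-yield libraries. Hemgn stayed among the abundant transcripts throughout, at percentiles from 91.9 to 96.7.

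Fn3k encodes fructosamine-3-kinase, which phosphorylates sugars attached to proteins so that they come off, and which is active in red cells. It lies on chromosome 11 at 121434913 to 121450491, forward strand (GRCm38, as are all gene positions here). In group 1 its level was 4.23, 3.96 and 5.76 CPM (the usual depth-normalised count, here with TMM factors) in wildtype replicates 1 to 3 and 0.0608, 0.746 and 0.277 CPM in the mutant. The mutant values rest on 3, 37 and 14 reads, those of wildtype on 206 to 336, so replicate 2 of the mutant carried most of the remaining signal. In group 2 it was 2.53, 4.85 and 5.57 CPM in wildtype, 0.235, 0.116 and 0.336 CPM in the mutant, and 0.160, 0.122 and 0.407 CPM in low-yield libraries. No mutant library of either group came near the lowest wildtype library. The mean level was 7.76% of wildtype in the group 1 mutant, 5.30% in the group 2 mutant and 5.32% in the low-yield mutant, with log2 fold changes of -3.69 (SE 0.44), -4.16 (SE 0.50) and -4.15 (SE 0.48). Without mutant replicate 2 the group 1 value was -4.76, and without low-yield replicate 3, the highest of its group, that of the low-yield mutant was -4.94.

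**Figure D1:**
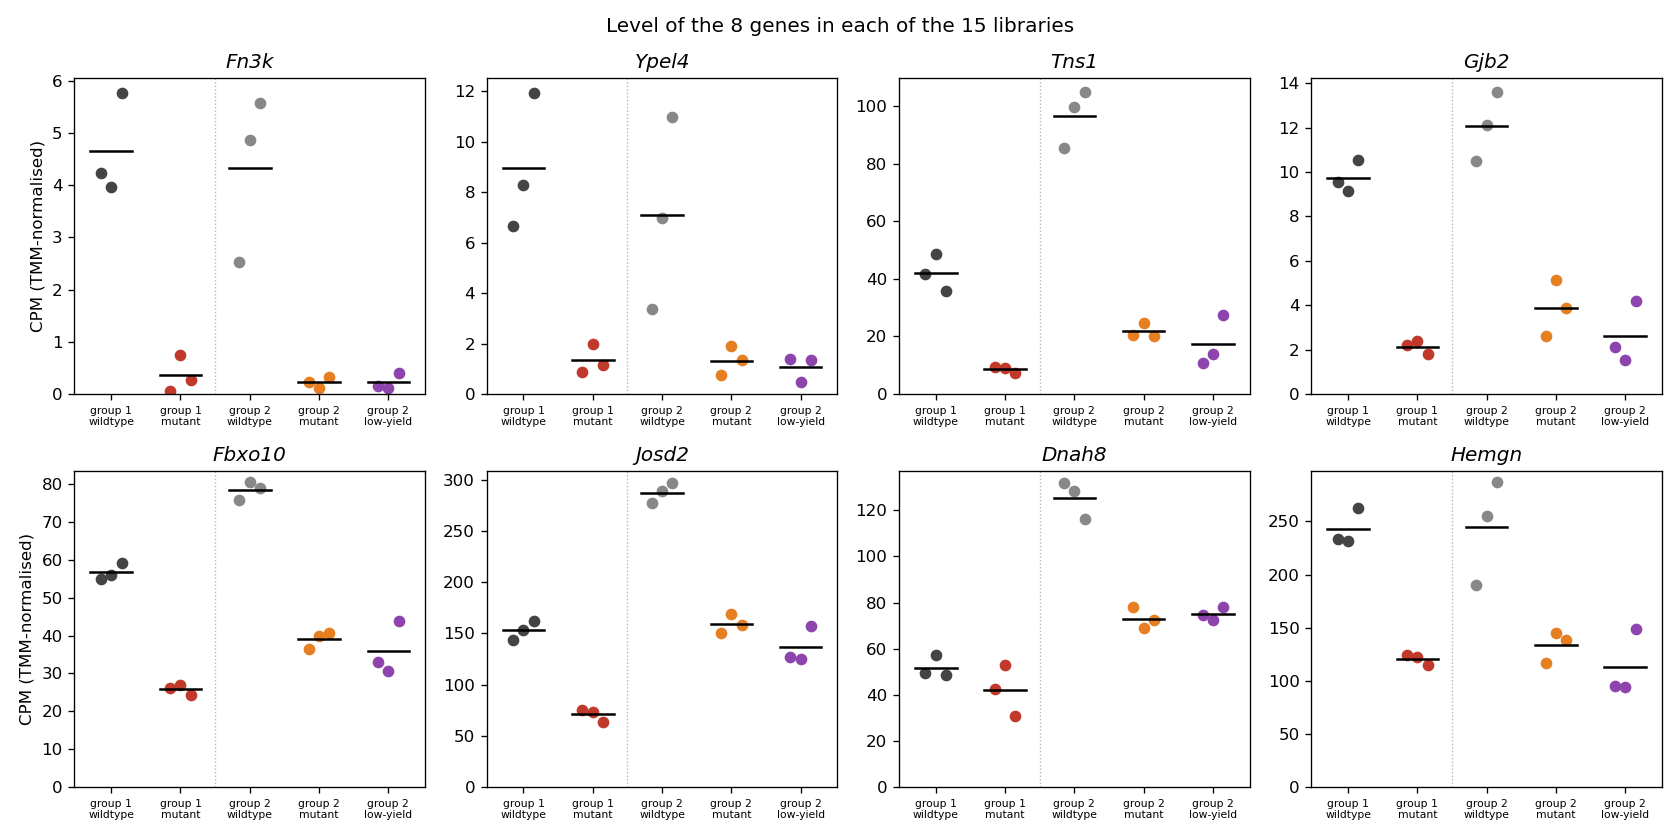
Level of each gene in CPM (linear axis from 0) in the 15 libraries. Points are libraries, in replicate order from left to right within a group, and black bars are group means of 3. The dotted line separates the groups of mice, whose levels are not comparable. Mutant points lie below all wildtype points of their group in every panel except Dnah8 in group 1.

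Ypel4 belongs to the yippee family of small zinc-binding proteins and is known to be needed for a normal red cell membrane in mice. Its locus is chromosome 2, 84734058 to 84738655, forward strand. Wildtype libraries of group 1 held 6.65, 8.30 and 11.9 CPM, and mutant libraries 0.891, 2.00 and 1.17 CPM. In group 2 the values were 3.38, 6.96 and 10.98 CPM in wildtype, 0.739, 1.89 and 1.34 CPM in the mutant, and 1.41, 0.487 and 1.34 CPM in low-yield libraries. Wildtype replicate 1 of group 2 was at 3.38 and replicate 3 at 10.98, so the wildtype libraries differed among themselves more than for any other of the 8 genes, yet the highest mutant library still lay below the lowest of them. The log2 fold changes were -2.74 (SE 0.32) in group 1, -2.49 (SE 0.46) in the group 2 mutant and -2.74 (SE 0.47) in the low-yield mutant, or 15.1%, 18.6% and 15.2% of the wildtype mean.

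Tns1 encodes tensin 1, which ties integrins in the membrane to actin filaments. The locus is on chromosome 1 at 73910231 to 74124449, reverse strand. It stood at 41.8, 48.5 and 35.9 CPM in the wildtype and 9.46, 9.09 and 7.21 CPM in the mutant of group 1. In group 2 wildtype libraries held 85.4, 99.8 and 105 CPM, mutant libraries 20.5, 24.8 and 20.1 CPM, and low-yield libraries 10.9, 14.1 and 27.4 CPM. The mutant libraries were tight around their mean (CV 12.1%), whereas the low-yield ones spread widely (CV 50.2%) because replicate 3 was about as high as the highest mutant library and the other replicates lay below all of them. The mean was 20.4% of wildtype in group 1 (log2 fold change -2.29, SE 0.14), 22.6% in the group 2 mutant (-2.15, SE 0.30) and 18.1% in the low-yield mutant (-2.45, SE 0.30).

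Gjb2 encodes connexin 26, a subunit of the channels of gap junctions, and is also expressed by hepatocytes. The gene sits on chromosome 14 at 57098600 to 57104702, reverse strand. Its level in group 1 was 9.55, 9.13 and 10.6 CPM in wildtype and 2.19, 2.38 and 1.82 CPM in the mutant. In group 2 it was 10.5, 12.1 and 13.6 CPM in wildtype, 2.62, 5.13 and 3.87 CPM in the mutant, and 2.11, 1.55 and 4.19 CPM in low-yield libraries. All mutant and low-yield libraries lay far below the lowest wildtype library of their group, and low-yield replicate 3 lay within the range of the mutant libraries. The log2 fold changes were -2.20 (SE 0.19), -1.66 (SE 0.28) and -2.16 (SE 0.28) in the same order. The 12 hepatocyte markers together took 36.2 to 66.7 CPM in wildtype and 6.61 to 23.8 CPM in the mutant of group 1, and in group 2 they took 11.3 to 88.8 CPM in wildtype, 9.42 to 56.9 CPM in the mutant and 49.3 to 53.4 CPM in the low-yield mutant. Of 11 tested, 3 were called lower in group 1 (Alb, Apob and Serpina1a) and 0 in group 2, where 6.78%, 2.95% and 5.86% of all genes were called lower in the 3 comparisons, and Apoh was at 0 in the mutant of group 1 and in all low-yield libraries. The ranges of these sums in mutant and wildtype were apart in group 1 and overlapped in group 2. Gjb1, the main connexin of hepatocytes, was near the floor, at most 0.335 CPM in any library. The calls of the 3 were lost under 2 of 12, 5 of 11 and 8 of 11 alternatives, for Alb with the replicate block (adjusted p 0.111), with which Ahsg was called instead (adjusted p 0.0278), and for Apob and Serpina1a without wildtype replicate 1, among others (adjusted p 0.108 and 0.13). What part hepatocyte RNA had in the level of Gjb2 was not tested.

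Fbxo10 encodes an F-box protein, the part of an SCF ubiquitin ligase that holds the substrate, with the survival protein BCL2 among its known substrates. It lies on chromosome 4 at 45034247 to 45084604, reverse strand, and overlaps Polr1e on the other strand. In group 1 it stood at 55.0, 56.1 and 59.1 CPM in the wildtype and 26.2, 26.9 and 24.2 CPM in the mutant. In group 2 the wildtype libraries held 75.7, 80.5 and 78.9 CPM, the mutant libraries 36.5, 39.96 and 40.8 CPM, and the low-yield libraries 33.1, 30.8 and 44.0 CPM. Here the wildtype libraries hardly varied (CV 3.79% and 3.14%), so a fall to 45.4%, 49.8% and 45.9% of wildtype left a wide gap between the genotypes. The log2 fold changes were -1.14 (SE 0.08), -1.0 (SE 0.12) and -1.12 (SE 0.12).

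Josd2 encodes a deubiquitinase of the Josephin family, which takes ubiquitin off proteins. Its locus is chromosome 7, 44467980 to 44471662, forward strand, with the microRNA gene Mir7052 inside it. Its level was 144, 153 and 162 CPM in wildtype and 75.7, 73.5 and 63.9 CPM in the mutant of group 1. In group 2 it was 277, 289 and 297 CPM in wildtype, 150.4, 169 and 158 CPM in the mutant, and 127, 125 and 158 CPM in low-yield libraries. The mutant libraries of each group lay close together and far below wildtype, at group means of 46.4%, 55.4% and 47.5% of wildtype, with log2 fold changes of -1.11 (SE 0.08), -0.85 (SE 0.09) and -1.07 (SE 0.09).

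Hemgn encodes hemogen, a nuclear protein of blood cells whose gene is a known target of GATA1 and of HOXB4. The locus is on chromosome 4 at 46393989 to 46413506, reverse strand. Its level was 233, 232 and 263 CPM in wildtype and 124, 123 and 115 CPM in the mutant of group 1. In group 2 it was 190.5, 255 and 287 CPM in wildtype, 117, 145 and 139 CPM in the mutant, and 95.3, 93.9 and 149 CPM in low-yield libraries. Mutant and low-yield libraries did not overlap wildtype, but the gap in group 2 was narrow, from 149 CPM in low-yield replicate 3 to 190.5 CPM in wildtype replicate 1. The means were 49.6%, 54.7% and 46.2% of wildtype, with log2 fold changes of -1.01 (SE 0.07), -0.87 (SE 0.21) and -1.11 (SE 0.21). Of the 8 genes Hemgn had the largest standard error for its size of change in group 2, and its value there was -1.01 without wildtype replicate 1 and -0.74 without wildtype replicate 3.

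Dnah8 encodes a heavy chain of an axonemal dynein, a motor of the cilia and sperm tails. The gene sits on chromosome 17 at 30624354 to 30877365, forward strand, and overlaps Glo1, 1700097N02Rik and other genes of the reverse strand. In group 1 it stood at 49.6, 57.1 and 48.8 CPM in wildtype and 42.6, 52.9 and 31.0 CPM in the mutant, so mutant replicate 2 lay within the wildtype range. In group 2 it held 132, 128 and 116 CPM in wildtype, 77.8, 68.9 and 72.2 CPM in the mutant, and 74.7, 72.5 and 77.9 CPM in low-yield libraries, with both kinds of mutant well clear of wildtype. The log2 fold changes were -0.30 (SE 0.19) in group 1, -0.78 (SE 0.08) in the group 2 mutant and -0.74 (SE 0.08) in the low-yield mutant, or 81.4%, 58.2% and 59.8% of wildtype. Glo1, the glyoxalase gene that overlaps it, was far more abundant and was not called by edgeR's quasi-likelihood test in any of the 3 comparisons (log2 fold changes -0.11, -0.21 and -0.24, adjusted p 0.526, 0.214 and 0.103). Whether the counting used the strand is not given in the sources used here, so reads of Dnah8 and Fbxo10 cannot be told with certainty from those of the genes that overlap them.

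**Figure D2:**
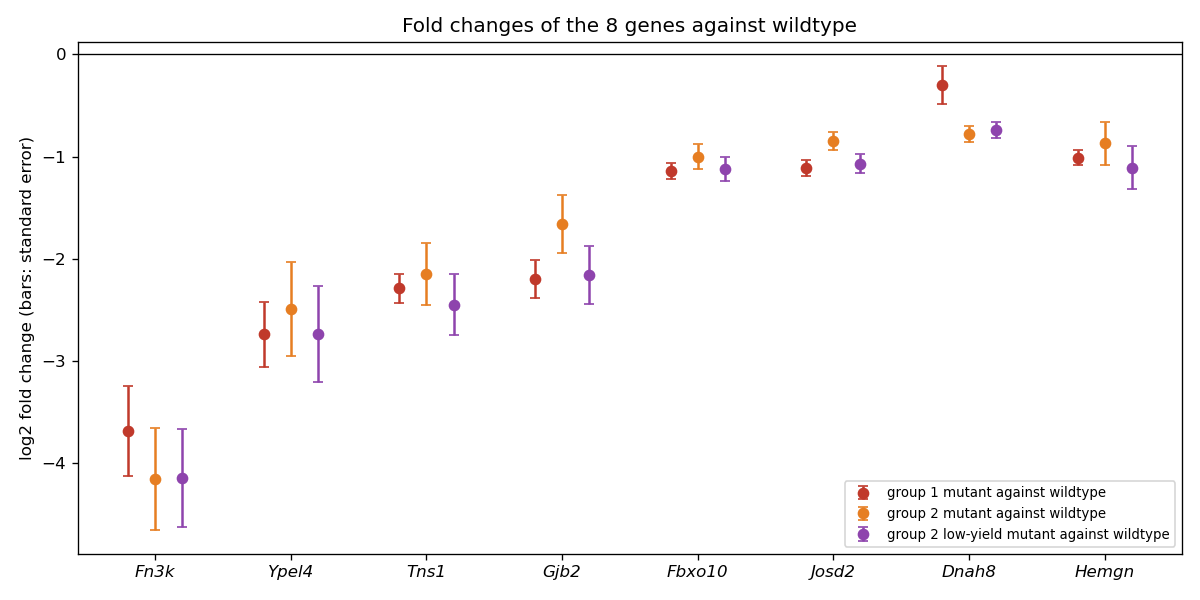
Log2 fold change of each gene against the wildtype of its own group of mice, by edgeR; bars are 1 standard error, and the group 2 comparisons share their 3 wildtype libraries. Fn3k lies near -4, Ypel4, Tns1 and Gjb2 between -2.74 and -1.66, and Fbxo10, Josd2 and Hemgn near -1. Dnah8 is at -0.30 in group 1 and near -0.78 in group 2.

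Counted together, 7 of the 8 genes were called lower in the group 1 mutant at an adjusted p of 0.05 over all genes, against 6.78% of the 14048 genes tested. In group 2 all 8 were called lower in the mutant, against 2.95% of 15024, and all 8 in the low-yield mutant, against 5.86%. In the group 2 mutant the call of Hemgn was lost under 8 alternatives, among them leaving out any 1 of the mutant replicates, wildtype replicate 2 or wildtype replicate 3, and that of Tns1 without mutant replicate 1. Mutant and wildtype libraries were fully separated, mutant lower, for 7 of 8 genes in group 1, where 16.6% of all genes did so, and for 8 of 8 in both comparisons of group 2, where 11.8% and 14.6% did. Since the genes were picked for this fall, nothing is read from these counts. The exception in group 1 was Dnah8, which was called there when the replicate number was added as a block (log2 fold change -0.32), a fit that raised the calls over all genes from 1766 to 2863. The median log2 fold change of the 8 genes was -1.67, -1.33 and -1.64 in the 3 comparisons, and that of all genes tested was 0.01, -0.01 and 0.00.

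In each of the 5 groups more than 4 of the 8 genes had the same library as their lowest or their highest. In the wildtype of group 2, replicate 1 was the lowest library for 7 of 8 genes and replicate 3 the highest for 6, whereas over all genes tested replicate 1 was lowest for 38.3% and replicate 3 highest for 32.3%. Among the low-yield libraries replicate 2 was lowest and replicate 3 highest for 7 of 8 each, against 33.6% and 36.4% of all genes. In group 1 wildtype replicate 3 was highest for 6 of 8 (37.2% of all genes), and among the mutants replicate 3 was lowest for 6 (30.1%) and replicate 2 highest for 5 (36.1%). In the mutant of group 2 replicate 1 was lowest for 5 of 8 (35.3%) and replicate 2 highest for 5 (40.1%). The lowest library of the group 1 wildtype was split, replicate 1, 2 or 3 for 3, 3 and 2 genes. As a median over the 8 genes of log2 CPM minus the wildtype mean, the low-yield libraries 1 to 3 lay at -1.74, -2.06 and -1.19 and the mutant libraries of group 2 at -1.64, -1.09 and -1.28, while the median over all genes was between 0.00 and 0.02 in these 6 libraries. The summed level of 33 other late erythroid genes had the same lowest and highest library as most of the 8 genes in 3 groups, at 5655, 5660 and 5230 CPM in replicates 1 to 3 of the group 1 mutant, 8378, 10109 and 11244 CPM in the group 2 wildtype and 6466, 6327 and 7623 CPM in low-yield libraries. The mutant libraries of group 2 held 6832, 7718 and 7837 CPM, highest in replicate 3, while 5 of the 8 genes were highest in replicate 2.

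Low-yield mutants were then set beside the other mutants of group 2. The values of both entered the choice of genes for a large or uniform fall, which favours genes that are alike in the 2 kinds of mutant, so the differences are a description. Over the whole table edgeR called 0 of the 15024 genes tested (0%; the smallest adjusted p was 0.819, 480 genes had an unadjusted p under 0.05, and DESeq2 called 6). The low-yield mean was lower than the mutant mean for 6 of 8 genes, with log2 fold changes from -0.50 (Gjb2, SE 0.34) to 0.04 (Dnah8, SE 0.08), and low-yield and mutant libraries overlapped for all 8 (4.15% of all genes had every low-yield library below every mutant one). Josd2 stood at 136.5 CPM on average in low-yield against 159 CPM in mutant libraries (log2 fold change -0.22, SE 0.09), and its 95% interval, from -0.42 to -0.02, was the only one of the 8 that did not include 0. For Dnah8 the 95% interval placed the low-yield level between 90.8% and 116% of the mutant level, and for Fbxo10 between 77.3% and 110.0%. For Fn3k, with 3 to 17 reads left in each of these 6 libraries, the interval ran from 25.2% to 403%, which holds a large difference of either sign. Without low-yield replicate 3 the log2 fold change was below 0 for 7 of 8 genes, all but Dnah8 (0.01), with Gjb2 at -1.07, Tns1 at -0.80 and Fn3k at -0.78, and 22 genes of the whole table were called.

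The falls in the groups of mice were compared through the interaction of genotype and group, over 12 libraries. It is built from the same falls that chose the genes, and a choice of uniform falls favours small differences, so it too is a description. Group of mice and kind of RNA (polyA in group 1, total in group 2) cannot be told apart in these differences. Over the whole table edgeR called 3 of 15954 genes (0.0188%), and none of them was among the 8. Dnah8 had the lower fold change in group 2, with a difference of log2 fold changes of -0.47 (SE 0.20, 95% interval -0.89 to -0.04). Josd2 had the higher one there, with a difference of 0.27 (SE 0.12, 95% interval 0.02 to 0.51). Gjb2 had the largest positive difference, 0.55 (SE 0.30). The 95% intervals of the difference lay between -0.25 and 0.56 for Tns1, Fbxo10, Josd2 and Hemgn. For Fn3k the interval ran from -2.51 to 1.57 and for Ypel4 from -1.31 to 1.83, wide enough to hold a large difference of either sign.

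**Figure D3:**
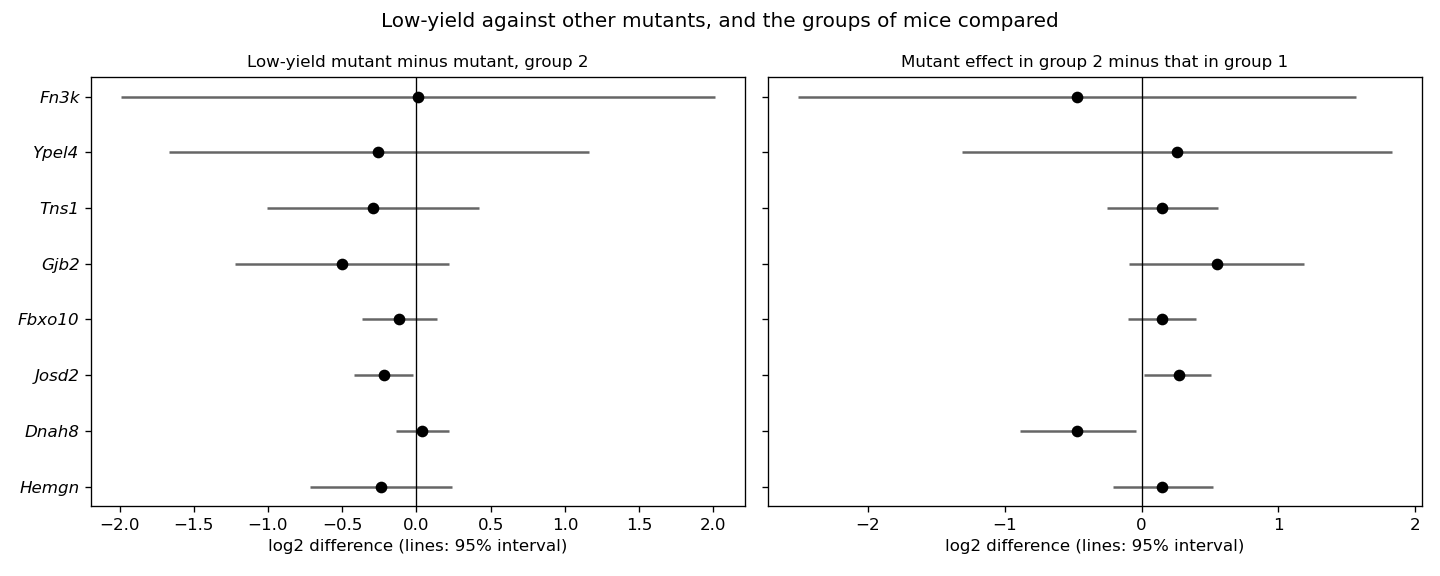
Differences with their 95% intervals (lines) on the log2 scale: at left the low-yield minus the other mutants of group 2, at right the mutant effect in group 2 minus that in group 1, with a different axis. In the left panel 7 of 8 intervals cross 0 and that of Josd2 ends just below it; in the right panel those of Josd2 and Dnah8 do not cross 0.

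Other members of the same gene families were looked at next. Of 31 related genes, 15 passed the low-count filter in group 1 and 16 in group 2, and in each comparison 1 was called lower and 1 higher (3 and 2 in group 1 with the replicate block). Over all genes 6.78%, 2.95% and 5.86% were called lower and 5.79%, 3.32% and 6.68% higher, so the counts without the block lie near the background. With the block the shares over all genes in group 1 were 9.92% lower and 10.5% higher. Gja1, connexin 43, rose where Gjb2 fell: from 7.82 ± 1.499 to 15.03 ± 0.611 CPM in group 1 (log2 fold change 0.95, SE 0.15, adjusted p 0.00217 by edgeR), and from 8.75 ± 2.49 to 18.4 ± 4.8 CPM in the group 2 mutant (1.08, adjusted p 0.0205) and 21.2 ± 4.48 CPM in the low-yield mutant (1.27, adjusted p 0.00439). In the group 2 mutant the call of Gja1 was lost when mutant replicate 1, wildtype replicate 2 or wildtype replicate 3 was missing, with adjusted p up to 0.0736. Ypel5 fell in group 2 (log2 fold change -1.31 in either kind of mutant, with adjusted p of 0.0117 and 0.00556); in group 1 it stood at -0.54 (adjusted p 0.137, or 0.0246 with the replicate block), and the difference between the groups of mice was not called (adjusted p 1). Its call in the group 2 mutant was lost without mutant replicate 3 or wildtype replicate 3, with adjusted p up to 0.0843. Ypel1, Ypel2 and Ypel3 were not called in any of the 3 comparisons, and neither were Tns3, Fbxo11 and Atxn3. Josd1, the closest relative of Josd2, was at -0.20, -0.32 and -0.27 (adjusted p 0.115, 0.0784 and 0.0992 by edgeR, and 0.0336 with the block in group 1). Of 13 other dynein heavy chain genes, 5 passed the filter in group 1 and 5 in group 2, at mean levels of at most 2.96 CPM, and none was called without the block, with which Dnah12 was called in group 1 (adjusted p 0.0408).

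Of 20 tested genes that work with the products of the 8, 1 was called lower and 1 higher in group 1, near the shares of all genes (6.78% and 5.79%). With the replicate block 2 were called lower and 1 higher there (Park7 gained at edgeR's adjusted p of 0.0319), against 9.92% and 10.5% of all genes. In group 2 edgeR called 0 of the 20. At an unadjusted p under 0.05 there were 2 of 20 in the group 2 mutant and 4 of 20 in the low-yield mutant, where 3071 and 3984 of all 15024 genes had one. Fn3krp, the relative of Fn3k that acts on other sugar adducts, was called lower in group 1 (log2 fold change -0.42, SE 0.11, adjusted p 0.0251 by edgeR; -0.25 and -0.42 in group 2, adjusted p 0.364 and 0.0684). Its call in group 1 was lost when any 1 library other than mutant replicate 1 was left out, with adjusted p up to 0.121. Bcl2 was called higher in group 1 (from 3.24 ± 0.388 to 5.80 ± 1.02 CPM; log2 fold change 0.84, adjusted p 0.0222), and stood at 0.64 and 0.53 in group 2 (adjusted p 0.121 and 0.155); in group 1 it was not called when mutant replicate 1 or 2, or wildtype replicate 2 or 3, was missing, with adjusted p up to 0.104. The integrin and focal adhesion genes Itgb1, Ilk, Tln1, Vcl, Pxn, Ptk2, Fermt3 and Lims1, which work with tensins, lay between -0.18 and 0.12 with none called, and the SCF core genes Skp1a, Cul1 and Rbx1 between -0.10 and 0.19 with none called. Gata1, a known activator of Hemgn, was not called either (0.14, 0.06 and 0.06), and Hoxb4 did not pass the filter.

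For each gene the 2 nearest tested genes on each side of it on the chromosome were taken, 32 in all. Of these 3 were called lower and 2 higher in group 1 (4 and 5 with the replicate block), 1 lower and 1 higher in the group 2 mutant, and 3 lower and 1 higher in the low-yield mutant. Over all genes the shares were 6.78% lower and 5.79% higher, 2.95% and 3.32%, and 5.86% and 6.68%, so with 32 genes the counts lie near the background. With the block the shares over all genes in group 1 were 9.92% lower and 10.5% higher. Their median log2 fold change was -0.01, -0.04 and -0.02, against 0.01, -0.01 and 0.00 over all genes. Tbcd begins 1458 bases after Fn3k and stood at 0.23, 0.08 and 0.11 (adjusted p 0.116, 0.752 and 0.534 by edgeR, and 0.0428 with the block in group 1), and Fn3krp lies 3625 bases before it. Polr1e, which overlaps Fbxo10, stood at 0.26, 0.21 and 0.29 with no call (adjusted p 0.0391 with the block in group 1). Ube2l6, 60173 bases after Ypel4 and itself a gene of late erythroid cells, was called lower in group 1 (-0.89, adjusted p 0.000467), stood at -1.01 in the group 2 mutant (adjusted p 0.0626), and was called lower among low-yield libraries (-1.35, adjusted p 0.0122). Cryl1, near Gjb2, stood at -0.68, -0.75 and -0.88 (adjusted p 0.0692, 0.0457 and 0.012, and 0.00526 with the block in group 1), and Arpc2, near Tns1, was higher in all 3 (0.24, 0.37 and 0.34, adjusted p 0.0495, 0.0345 and 0.032). The remaining calls were those of 5430431A17Rik, a noncoding gene 1876 bases after Josd2 (-3.60 in group 1), Zfp750 near Fn3k (2.72 in group 1) and Emc10 near Josd2 (-0.32 in the low-yield mutant). Apart from Ube2l6 in group 1, each of these calls was lost when some single library was left out, with adjusted p from 0.059 to 0.216 at most.

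**Figure D4:**
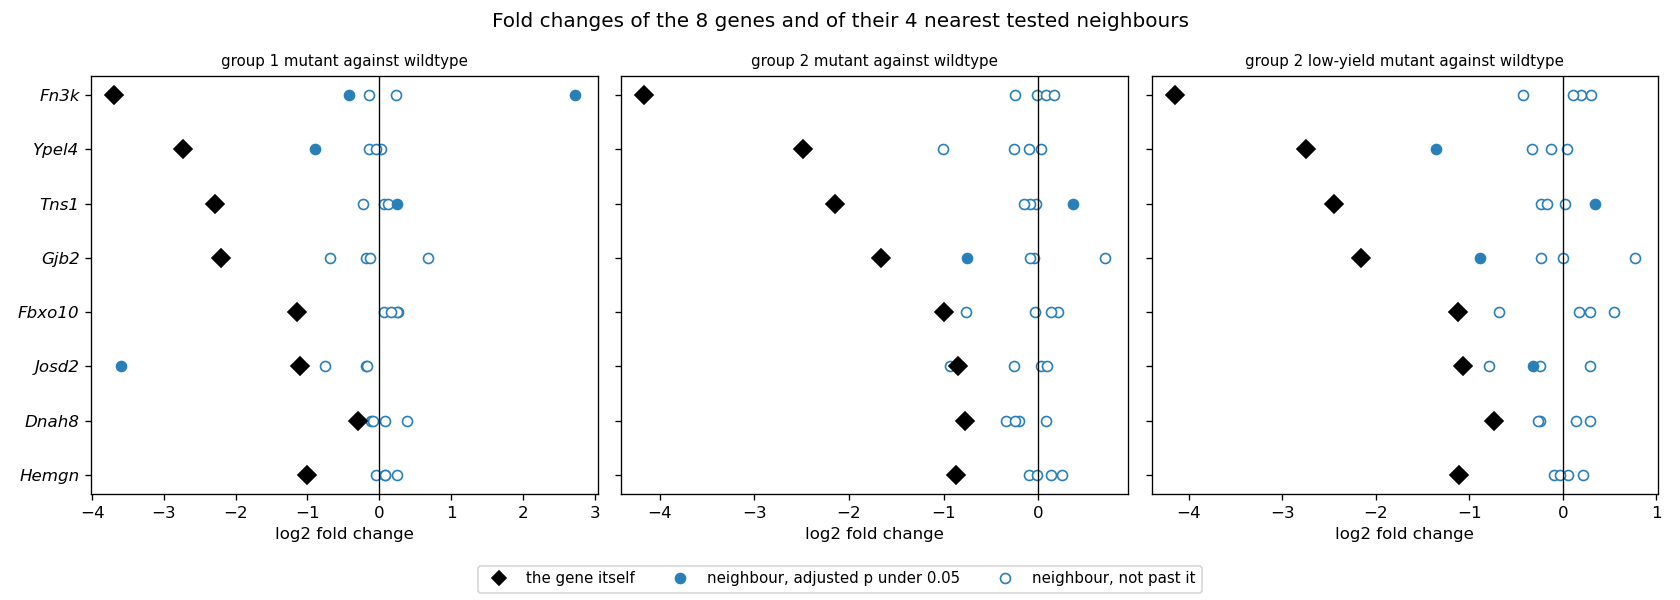
Log2 fold change of each gene (black diamonds) and of its 4 nearest tested neighbours on the chromosome (circles, filled where edgeR's adjusted p is under 0.05), in the 3 comparisons with wildtype; the panels have different axes. Most neighbours gather around 0, and the 8 genes lie to the left of their own. The exceptions are at Josd2, where 5430431A17Rik lies further left, at -3.60 in group 1 and -0.93 in the group 2 mutant. Other neighbours away from 0 include Zfp750 near Fn3k (2.72 in group 1), Ube2l6 near Ypel4 (-0.89, -1.01 and -1.35) and Cryl1 near Gjb2 (-0.68, -0.75 and -0.88).

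The genes most like each of the 8 over the 15 libraries were sought by the root mean square difference in log2 CPM after the wildtype mean of the same group of mice was subtracted, among 9464 other named genes with a mean of at least 2 CPM in both groups. They shared libraries and were sought for likeness, so this is a description. Fn3k had no close match: the nearest were the globin genes Hbb-bt (difference 1.52) and Hba-a2 (1.54) and Slc4a1 (1.55), which encodes band 3, the anion exchanger of the red cell membrane. Ypel4 was nearest to the same 3 genes, Slc4a1 at 0.48, Hbb-bt at 0.50 and Hba-a2 at 0.53. Tns1 and Gjb2 shared Stard10 (0.35 and 0.28), a lipid transfer protein gene, and Btnl10 (0.41 and 0.32), and were close to each other (0.34). Fbxo10, Josd2 and Hemgn all had Tspan33, a membrane protein gene, as their nearest gene (0.13, 0.12 and 0.09), with Cldn13 and Epb42, which encodes a protein of the red cell skeleton, next for Fbxo10, Arrdc2 and Kel for Josd2, and Epb42 and the heme synthesis gene Uros for Hemgn. Fbxo10 and Josd2 were closer to each other (0.09) than to any of these. The nearest of the 8 to Fn3k was Ypel4 (1.25), to Ypel4 Gjb2 (0.57) and to Dnah8 Josd2 (0.41). Dnah8 was most like Mfsd12 (0.16), Col5a1 (0.16) and Tmem250-ps (0.17).

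Across the wider programme, 33 other genes of late erythroid cells were tested. By edgeR 23 were called lower in group 1, 11 in the group 2 mutant and 18 in the low-yield mutant, and 0 were called higher, where 6.78%, 2.95% and 5.86% of all genes were called lower. Their median log2 fold change was -0.53, -0.53 and -0.68, against 0.01, -0.01 and 0.00 over all genes. This list, too, was chosen with results of these data known. In the group 2 mutant the count was 17 when wildtype replicate 1 was left out, 7 and 5 without wildtype replicates 2 and 3, and 4, 6 and 6 without mutant replicates 1, 2 and 3. In the low-yield mutant it was 10 without low-yield replicate 1. Those named by the rule in group 1 were Aqp1, a water channel (-1.52, adjusted p 7.34e-07), Tspan33 (-0.97, adjusted p 8.76e-06), Cldn13 (-1.12, adjusted p 1.12e-05) and Epb42 (-1.0, adjusted p 0.000242), and they were called in both comparisons of group 2 as well. Their calls in the group 2 mutant were less firm: Aqp1, Epb42, Tspan33 and Cldn13 lost them under 9, 6, 3 and 3 of 16 alternatives, with adjusted p up to 0.159, 0.125, 0.0633 and 0.0631, each time highest without mutant replicate 1. In the low-yield mutant Aqp1 alone of the 4 lost its call, without low-yield replicate 1 (adjusted p 0.0555) and without wildtype replicate 3.

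Of 10 erythroid regulators 3, 3 and 4 were called lower in the 3 comparisons and 0 higher, against 6.78%, 2.95% and 5.86% of all genes called lower. Klf1 was called in each of them (log2 fold changes -0.51, -0.48 and -0.61, adjusted p 0.000691, 0.00392 and 0.000358 by edgeR), as was Epor, the erythropoietin receptor (-0.40, -0.34 and -0.45, adjusted p 0.00188, 0.023 and 0.00232). The call of Epor in the group 2 mutant was lost without wildtype replicate 2 or any 1 of the mutant replicates, with adjusted p up to 0.107. Tal1 stood at -0.22, -0.23 and -0.30 (adjusted p 0.0368, 0.108 and 0.0236 by edgeR). Its calls were lost under 4 of 12 alternatives in group 1 and 4 of 16 for the low-yield mutant. Gfi1b, at -0.17, 0.06 and -0.13, was not called in any of the 3. Among 10 genes of early progenitors 2, 3 and 5 were called higher and 0 lower, where 5.79%, 3.32% and 6.68% of all genes tested were called higher. With the replicate block 7 were called higher in group 1, against 10.5% of all genes in that fit. Runx1 (0.61, 0.56 and 0.74, adjusted p 0.000497, 0.00265 and 0.000193) and Kit (0.30, 0.47 and 0.52, adjusted p 0.0126, 0.0136 and 0.00382) were called in all 3. Kit lost its call in group 1 when mutant replicate 3, wildtype replicate 1 or wildtype replicate 2 was missing, and in the group 2 mutant when mutant replicate 2, wildtype replicate 2 or wildtype replicate 3 was missing, with adjusted p up to 0.0542 and 0.0643. In bulk RNA, fewer late cells and less of these transcripts per cell cannot be told apart.

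The depth and makeup of the libraries bear on all of these values. Total counts per library were 48510828 to 58513669 in group 1, against 24954324 to 44827821 for group 2. Rpl5 itself was lower in every mutant library than in any wildtype library of its group (518 to 574 against 652 to 743 CPM in group 1; 226 to 257 in mutant and 222 to 281 in low-yield against 301 to 375 CPM in group 2). The erythroid markers Slc4a1, Klf1, Gata1, Epor, Tfrc and Alas2 were present in every library, with at least 590 reads each. The 10 granulocyte markers summed to 100.4, 766 and 726 CPM in wildtype replicates 1 to 3 of group 1 and to 256, 1472 and 982 CPM in the mutant, higher in the mutant for each number, with 0 called. With the replicate block 4 were called higher in group 1, against 10.5% of all genes in that fit. In group 2 they summed to 17.9 to 34.4 CPM in wildtype, 134 to 238 CPM in mutant and 178 to 385 CPM in low-yield libraries, where 6 and 9 of 9 tested were called higher, against 3.32% and 6.68% of all genes. In the group 2 mutant Mpo lost its call under 9 of 16 alternatives, the replicate block among them, Prtn3 under 2 of 16 and Elane under 1 of 15 (adjusted p up to 0.12, 0.0659 and 0.0517), and in the low-yield mutant Epx lost it under 3 of 16 (up to 0.0755) and Mpo under 1 (0.0524). The 6 endothelial markers summed to 51.1 to 56.6 CPM in wildtype and 62.3 to 67.1 CPM in the mutant of group 1, and to 46.8 to 67.6, 64.3 to 67.3 and 67.4 to 71.7 CPM in wildtype, mutant and low-yield libraries of group 2. Of these, 0 of 3 tested were called in group 1 (1 higher with the block), and in group 2 Pecam1 was called higher in both kinds of mutant (1.79 and 2.58, adjusted p 0.00994 and 0.000233) and Kdr among low-yield libraries (2.74, adjusted p 0.0336). Most of each endothelial sum was Egfl7, at 50.7 CPM in wildtype and 58.0 CPM in the mutant of group 1. In group 2 Egfl7 stood at 55.1, 61.0 and 62.1 CPM in wildtype, mutant and low-yield libraries. It was not called in any of the 3 comparisons with wildtype. The call of Pecam1 in the mutant was lost without wildtype replicate 2 (adjusted p 0.0517), and that of Kdr under 6 of 15 alternatives (adjusted p up to 0.132). The 8 megakaryocyte markers summed to 45.5 to 71.1 CPM in the libraries of group 1 and 46.4 to 67.3 CPM in those of group 2. Itga2b, one of them, stood at 0.77, 0.77 and 1.62 in the 3 comparisons (adjusted p 0.0827, 0.0135 and 3.57e-05), and was called in group 1 too with the replicate block (adjusted p 2.73e-05). In the group 2 mutant it was not called when mutant replicate 1 or wildtype replicate 3 was missing (adjusted p up to 0.0555). Tubb1 stood at -1.14, -0.97 and -0.88 (adjusted p 0.000467, 0.0775 and 0.0696). Vwf stood at -0.67, -0.60 and -0.63 (adjusted p 0.0453, 0.0865 and 0.0461), and its calls were lost under 5 of 12 alternatives in group 1 and 11 of 16 for the low-yield mutant. The part of these cells in the falls of the 8 genes was not tested. The 10 macrophage markers summed to at most 11.9 CPM in any library, with Cd5l and Timd4 at 0 in every library.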

How the data were processed

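RNA of 15 libraries in 5 groups of 3 was sequenced as paired-end reads on a NovaSeq, per the labels' protocols. The deposited tables hold the authors' expected counts per gene, not normalised and already whole numbers. The submitters' processing notes name cutadapt 2.3, STAR 2.7.8a, RSEM 1.3.3 and GRCm38, with no role or order. The strand setting and the annotation release are not given in the sources used here. The sample sheets were read only for genotype names, and all 15 matched the labels.

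From these counts, genes with low counts were removed (filterByExpr), TMM factors were computed, and edgeR 4.0.16 (R 4.3.3, limma 3.58.1) fitted its quasi-likelihood test with Benjamini-Hochberg adjustment over all genes tested at 0.05. Group 1 was fitted alone, group 2 with its 9 libraries, and the interaction with the 12 wildtype and mutant libraries. CPM are TMM-normalised except those of Rpl5, of Gjb1 and of summed gene lists, which use library totals alone, and RPKM use exon lengths from GENCODE M21. Alternatives were other size factors, DESeq2 1.42.0, other low-count filters, a replicate block, other libraries in the fit, and each replicate left out. In group 1, same-numbered wildtype and mutant libraries deviated together (correlations 0.44, 0.19 and 0.15), a pairing read from the data and the shared numbers. Total counts per library were 24954324 to 58513669.

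The 8 genes and all gene lists were chosen with earlier results of these data known, so no list is independent evidence. Named are the 8 genes, tested relatives and partners, neighbours, the 3 genes most like each, and up to 4 genes a list with the smallest p in group 1.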

Additional observations from a re-analysis of the deposited data

How the results depend on the processing

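Of the 8 genes, every log2 fold change against wildtype kept its sign under all alternatives run. The number of genes called over the whole table moved more. In group 1 it was 1766, 2863 with the replicate block and 753 to 1729 with 1 library left out. For the group 2 mutant it was 942, 1453 by DESeq2, 1309 with the block and 425 to 1323 with 1 library left out. For the low-yield mutant it was 1884, 2331 with the block and 900 to 2395 with 1 library left out. For low-yield against mutant it was 0, 6 by DESeq2, 0 with the block and 0 to 22 with 1 library left out. For the interaction it was 3, 13 by DESeq2, 5 with the block and 2 to 3 with 1 library left out. In group 2 the correlations of same-numbered libraries ran from -0.07 to 0.24. Those of mutant with wildtype were 0.24, 0.17 and 0.02 for replicates 1 to 3, against 0.44, 0.19 and 0.15 in group 1. Whether the group 2 libraries are paired is therefore not settled. With the block all 8 genes were called in each of the 3 comparisons with wildtype. Among the calls of the 8 genes in the group 2 mutant, 5 were left with a filter at a mean of 5 CPM, which removes Fn3k and Ypel4 and under which Hemgn was not called. Hemgn was also not called there without the low-count filter, without any 1 of mutant replicates 1 to 3, without wildtype replicate 2 or 3, and in the legacy mode of edgeR, an alternative chosen after seeing the data. Tns1 was not called without mutant replicate 1. Signs changed for differences near 0. With 1 library left out, low-yield against mutant ran from -0.53 to 0.07 for Ypel4 (above 0 without low-yield replicate 2 or mutant replicate 2, at 0.07 and 0.02) and from -0.78 to 0.44 for Fn3k (below 0 without low-yield replicate 3 or mutant replicate 1 or 2, at -0.78, -0.01 and -0.25). The interaction ran from -0.99 to 0.59 for Fn3k (above 0 without group 1 mutant replicate 2), from -0.08 to 0.72 for Ypel4 (below 0 without group 1 wildtype replicate 3, group 2 mutant replicate 2 or group 2 wildtype replicate 1, at -0.0001, -0.03 and -0.08) and from -0.03 to 0.25 for Hemgn (below 0 without group 2 wildtype replicate 1). The precision of Fn3k is limited by its few reads, 3 to 37 in a mutant library, at depths where wildtype libraries hold 80 to 336. The causes of these changes were not tested.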
